A study of Mus musculus with 16 samples.

Results

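The genes described here are 37 genes of glycolysis and pyruvate metabolism, chosen by name from the pathway: glucose and lactate transporters, the enzymes that split glucose, the enzymes that set the level of fructose 2,6-bisphosphate, and the genes that steer pyruvate to lactate or into the mitochondrion. Earlier results of these data were known when this list and the further gene lists below were chosen. All 37 were found among the 55414 gene IDs of the count table, and all 37 passed the filter on low counts. They were followed in RNA-seq libraries from 16 subcutaneous B6MyC-CaP tumours in 4 groups of 4. B6MyC-CaP is a prostate cancer cell line that was derived from C57BL/6 mice with the Hi-MYC transgene, and every tumour grew in a male C57BL/6 mouse that was 6 weeks old at implantation, so all groups carry the same tumour line and an intact host. Hi-MYC mice express human MYC in the prostate from an androgen-responsive probasin promoter. Counts of mouse Myc are not a measure of that transgene, and whether reads from it were counted as mouse Myc was not checked. ADF+ENZ mice had both alternate-day fasting (ADF; 24 h without food, then 24 h of free feeding) and 20 mg/kg of enzalutamide (ENZ) by gavage each day. ADF mice had the fasting schedule without the drug, ENZ mice had the drug with free access to chow, and Vehicle mice were freely fed without the drug. The point of the fasting cycle at which tumours were taken is not stated in the labels. Each tumour has a number there, but separate mice are not stated, so the p-values cover the spread of these 16 samples, which may in part be technical.

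Glycolysis turns glucose into pyruvate in the cytosol. Pyruvate is then either reduced to lactate and exported, or oxidised to acetyl-CoA by the pyruvate dehydrogenase complex, which pyruvate dehydrogenase kinases switch off. Tumours often make lactate even with oxygen present, and many genes of the pathway are induced by hypoxia-inducible factor (HIF) and by MYC. Enzalutamide is a drug given against prostate cancer that blocks androgen signalling. Normal prostate epithelium is known for an unusual metabolism that exports citrate, and prostate tumours tend to lose it.

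Promoter sequences of 7 members are shown first, because most members fell in ADF and HIF and MYC are known to act through short elements near the start of such genes. The first 5 are the members with the largest log2 decrease in ADF against Vehicle among those with at least 10 CPM on average. Ldha and Eno2 were chosen after their values were seen, Ldha as the most element-rich promoter and Eno2 as a glycolytic gene that did not pass the test. Each sequence is 300 bases from RefSeq (GRCm38.p6), from 250 bases before the start site to 50 after it, 5′ to 3′ on the strand of the gene. Capitals mark ACGTG or GCGTG on either strand, so that CACGT and CACGC are the same elements read on the other strand. CACGTG, the E-box that MYC and the carbohydrate response factors use, contains ACGTG on both strands and was counted separately.
Slc2a1: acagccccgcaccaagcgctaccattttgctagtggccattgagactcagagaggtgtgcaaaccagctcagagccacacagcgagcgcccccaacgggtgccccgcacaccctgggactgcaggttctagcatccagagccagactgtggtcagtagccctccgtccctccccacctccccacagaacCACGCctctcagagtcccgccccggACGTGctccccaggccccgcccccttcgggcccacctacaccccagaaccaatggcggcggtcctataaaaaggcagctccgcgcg
Slc16a3: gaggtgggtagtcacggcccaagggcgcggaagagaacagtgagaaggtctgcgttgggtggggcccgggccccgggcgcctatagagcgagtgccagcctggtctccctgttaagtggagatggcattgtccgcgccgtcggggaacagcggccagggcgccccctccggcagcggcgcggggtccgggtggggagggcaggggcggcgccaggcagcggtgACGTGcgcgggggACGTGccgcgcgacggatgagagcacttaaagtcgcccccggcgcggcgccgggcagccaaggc
Tpi1: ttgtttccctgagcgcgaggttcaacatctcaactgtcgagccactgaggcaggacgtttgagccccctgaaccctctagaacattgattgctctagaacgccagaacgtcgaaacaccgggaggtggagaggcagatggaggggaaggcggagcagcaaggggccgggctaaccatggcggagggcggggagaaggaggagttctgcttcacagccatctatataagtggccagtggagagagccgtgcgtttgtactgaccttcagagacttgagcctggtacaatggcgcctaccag
Pfkl: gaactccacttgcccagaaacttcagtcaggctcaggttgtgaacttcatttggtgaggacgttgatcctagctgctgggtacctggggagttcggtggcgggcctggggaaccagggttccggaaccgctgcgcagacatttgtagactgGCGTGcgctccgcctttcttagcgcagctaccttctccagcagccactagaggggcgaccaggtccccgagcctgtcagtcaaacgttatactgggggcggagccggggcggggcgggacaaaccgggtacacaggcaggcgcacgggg
Aldoa: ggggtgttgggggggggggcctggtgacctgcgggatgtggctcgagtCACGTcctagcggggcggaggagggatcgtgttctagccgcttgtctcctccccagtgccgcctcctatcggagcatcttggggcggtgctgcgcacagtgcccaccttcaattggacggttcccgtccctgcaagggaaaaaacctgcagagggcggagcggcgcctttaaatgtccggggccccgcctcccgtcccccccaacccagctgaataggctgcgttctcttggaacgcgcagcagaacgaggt
Ldha: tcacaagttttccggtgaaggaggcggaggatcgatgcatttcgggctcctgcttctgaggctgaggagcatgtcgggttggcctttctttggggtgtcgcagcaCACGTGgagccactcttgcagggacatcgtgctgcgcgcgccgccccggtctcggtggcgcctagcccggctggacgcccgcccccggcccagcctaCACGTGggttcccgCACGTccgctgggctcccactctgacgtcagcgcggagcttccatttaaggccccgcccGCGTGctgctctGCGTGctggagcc
Eno2: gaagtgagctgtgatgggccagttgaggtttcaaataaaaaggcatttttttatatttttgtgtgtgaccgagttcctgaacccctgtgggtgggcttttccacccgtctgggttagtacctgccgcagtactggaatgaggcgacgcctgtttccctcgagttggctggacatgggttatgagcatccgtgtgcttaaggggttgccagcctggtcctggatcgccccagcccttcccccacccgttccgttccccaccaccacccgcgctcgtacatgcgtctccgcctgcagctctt

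These windows lie around annotated start sites at chr4:119108495-119108794, plus strand (Slc2a1, ENSMUSG00000028645), chr11:120948817-120949116, plus strand (Slc16a3, ENSMUSG00000025161), chr6:124814109-124814408, minus strand (Tpi1, ENSMUSG00000023456), chr10:78009758-78010057, minus strand (Pfkl, ENSMUSG00000020277), chr7:126799129-126799428, minus strand (Aldoa, ENSMUSG00000030695), chr7:46845554-46845853, plus strand (Ldha, ENSMUSG00000063229) and chr6:124769624-124769923, minus strand (Eno2, ENSMUSG00000004267). The Ldha window holds 2 CACGTG sites, which count as 4 of its 5 ACGTG matches over both strands, and 2 GCGTG matches. The Slc16a3 window holds 2 ACGTG matches, and those of Slc2a1, Aldoa and Pfkl hold 1 to 2 matches each. Neither Tpi1, which fell, nor Eno2, which did not pass, holds any of the 3 motifs in this window. Promoters were found for 36 of the 37 members. ACGTG or GCGTG was present in 16 of the 21 promoters of members that fell in ADF against Vehicle and in 12 of the 15 promoters of members that did not pass there, against 43.8% of the 32851 promoters of the RefSeq table. ACGTG alone was in 10 of 21 and 8 of 15, against 19.6% of all promoters. GCGTG was in 12 of 21 and 9 of 15, against 32.4%. CACGTG was in 2 of 21 and 3 of 15, against 7.15%. The members held the short motifs more often than all promoters did, in those that fell and in those that did not pass alike, and no test was made of these shares.

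Libraries held 10072489 to 25505655 counts assigned to genes. Reads in no annotated feature were 21.2% to 26.1% of reads in ADF+ENZ, 30.3% to 36.7% in ADF, 24.5% to 27.9% in ENZ and 23.4% to 27.9% in Vehicle, so the ADF libraries stood apart from the other groups. Reads with no unique alignment also set them apart, at 6.51% to 7.90% in ADF+ENZ, 4.10% to 5.03% in ADF, 7.81% to 7.96% in ENZ and 7.16% to 7.84% in Vehicle. The prostate label was checked against marker genes, of which Foxa1 averaged 49.6 CPM and Hoxb13 9.15 CPM over the 16 libraries, while Pbsn had no count. Among epithelial markers Krt8 averaged 501 CPM and Epcam 0.420 CPM. Within Vehicle, library 3 was the highest of the 4 in 21 of the 37 members and library 4 the lowest in 22.

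By summed level, the 37 members made up 4728 to 6016 CPM in ADF+ENZ tumours, 3740 to 4417 CPM in ADF tumours, 5086 to 5803 CPM in ENZ tumours and 5709 to 8838 CPM in Vehicle tumours. The ADF range did not overlap any other group, and the ENZ range overlapped Vehicle only through Vehicle library 4. Per kilobase of exon, the most abundant members in Vehicle were Aldoa (267 CPM per kb), Pkm (252), Pgk1 (231), Ldha (200.5), Tpi1 (187) and Eno1 (182). Gapdh stood at 38.3 CPM per kb. Reads that also match another gene can be lost or split in counting: of the 75-base stretches of Pgk1, 52.8% also occur in another annotated gene, as do 34.9% of those of Pgam1, 23.0% of Eno1, 22.6% of Gapdh and 17.8% of Pkm. The Gapdh stretches recur in 121 genes, of which 113 are pseudogenes. Levels of these 5 genes are therefore uncertain, and their ADF values come from the libraries with the lowest percent of reads with no unique alignment, whose part in their change was not tested, while Hk2, Pfkl, Aldoc, Slc16a1, Slc16a3, Pdk1, Dlat and Gbe1 share no such stretch. In bulk tumours, fewer cells of a type and less RNA per cell cannot be told apart, and this holds for every level given here.

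**Figure D1:**
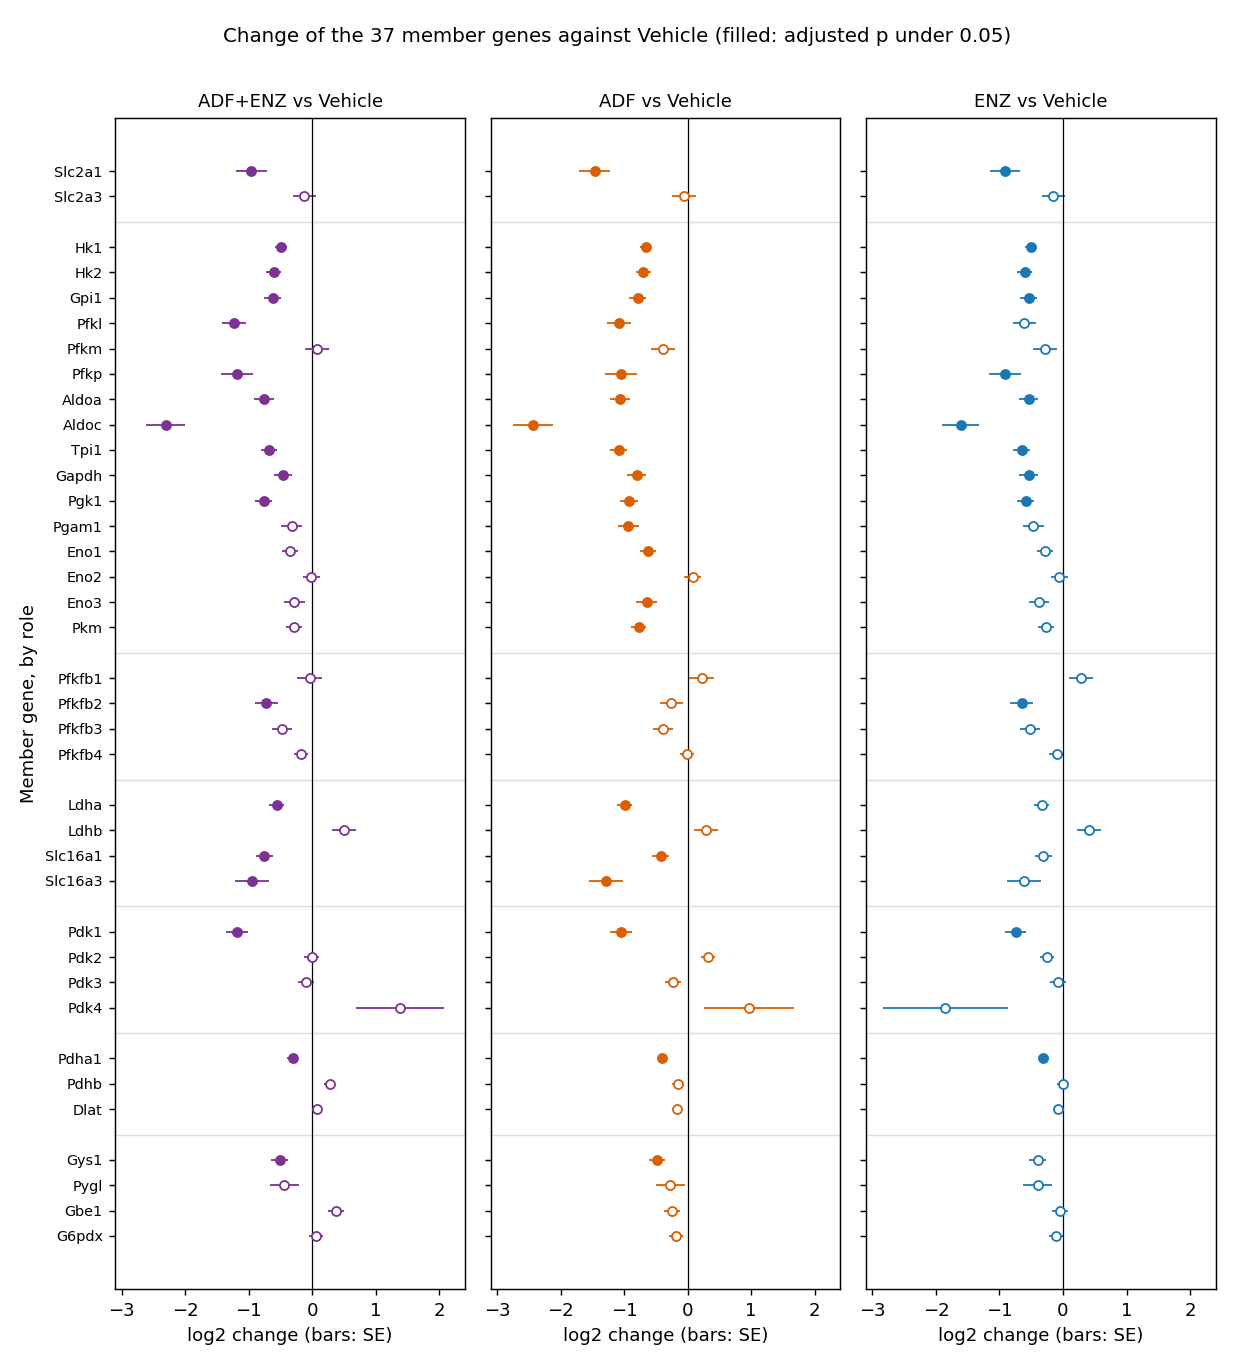
Log2 change of each of the 37 members (rows, grouped by role, bars are SE) in ADF+ENZ, ADF and ENZ tumours against the same 4 Vehicle tumours (n = 4 a group). Filled points passed an edgeR adjusted p under 0.05, which 18, 21 and 13 members did, all of them lower than Vehicle.

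Against Vehicle, every member that passed the test was lower in the treated group, and 15 of the 37 passed in none of the 3 comparisons. In ADF tumours 21 of 37 members fell and 0 rose, where 4.96% of the 18946 genes tested fell and 4.05% rose (edgeR quasi-likelihood test, adjusted p under 0.05). In ADF+ENZ tumours 18 fell and 0 rose, against 6.53% and 5.97% of all genes tested. In ENZ tumours 13 fell and 0 rose, against 3.62% and 1.81%. These 3 comparisons share the 4 Vehicle libraries. Members that did not pass lay on both sides of 0: 5 of the 37 had a log2 change above 0 in ADF, 7 in ADF+ENZ and 2 in ENZ. The median log2 change of the 37 members was -0.48 in ADF, -0.44 in ADF+ENZ and -0.40 in ENZ, beside a median over all genes tested of 0.0088, 0.00012 and 0.014 in the same order. All 4 libraries lay below all 4 Vehicle libraries for 21 members in ADF (8.55% of all genes tested), 14 in ADF+ENZ (8.67%) and 8 in ENZ (6.54%). In ADF+ENZ all libraries of Ldhb and Pdhb lay above Vehicle, as did those of Pdk2 in ADF, and none of these changes passed. The share of all genes with every library above Vehicle was not counted, so nothing is read from their number.

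Of the 2 glucose transporter genes, the more abundant one fell in each treated group. Slc2a1 encodes GLUT1, the basal glucose transporter of most cells and a HIF target. It was at 89.04, 74.6, 121 and 65.5 CPM in ADF+ENZ, 51.8, 73.6, 76.8 and 43.01 in ADF, 98.4, 111, 83.5 and 66.9 in ENZ and 172, 159, 219.9 and 127 in Vehicle tumours. Every treated library lay below every Vehicle library, and the ADF group was the lowest on average. Slc2a1 fell in ADF (log2 -1.46, SE 0.24, adjusted p = 0.00315), in ADF+ENZ (log2 -0.96, SE 0.24, adjusted p = 0.0182) and in ENZ (log2 -0.92, SE 0.24, adjusted p = 0.0385). Slc2a3, the high-affinity carrier GLUT3, did not pass in any comparison: it lay between 11.5 to 14.999 CPM in ADF+ENZ, 13.2 to 15.1 in ADF, 11.004 to 14.7 in ENZ and 9.20 to 19.3 in Vehicle, and its log2 change in ADF was -0.058 (SE 0.18). Slc2a1 made up 90.3% to 95.5% of the per-kilobase level of the pair in ADF+ENZ, 86.4% to 92.3% in ADF, 91.8% to 94.9% in ENZ and 95.2% to 97.3% in Vehicle.

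Of the 16 glycolytic enzymes, 14 fell in ADF, 10 in ADF+ENZ and 9 in ENZ. The hexokinases trap glucose as glucose 6-phosphate. Hk1, the broadly expressed form, was at 121, 114, 117 and 123 CPM in ADF+ENZ, 97.8, 98.7, 119 and 109 in ADF, 104, 122, 117 and 129 in ENZ and 163, 174, 196 and 137 in Vehicle tumours. Hk2, the form that many tumours add, was at 72.05, 66.2, 72.7 and 78.8 CPM in ADF+ENZ, 55.6, 74.6, 79.6 and 62.01 in ADF, 82.4, 71.3, 60.3 and 77.99 in ENZ and 95.6, 120.5, 124 and 102 in Vehicle tumours. Both fell in each treated group. For Hk2 the log2 change was -0.70 in ADF (SE 0.12, adjusted p = 0.00191), -0.61 in ADF+ENZ (SE 0.12, 0.00311) and -0.60 in ENZ (SE 0.12, 0.00545). No treated library reached the lowest Vehicle library for either gene. The ratio of Hk2 to Hk1 averaged 0.608 in ADF+ENZ, 0.641 in ADF, 0.624 in ENZ and 0.664 in Vehicle, with ranges that overlap. Gpi1, which makes fructose 6-phosphate, fell to 319 ± 48.2 CPM in ADF+ENZ, 286 ± 22.8 in ADF and 338 ± 38.9 in ENZ, against 493 ± 103 in Vehicle (SD, n = 4 each).

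Phosphofructokinase, the committed step of glycolysis, is made from 3 genes, of which 1 passed in no comparison with Vehicle. The liver-type gene Pfkl was at 48.2, 57.9, 42.4 and 38.997 CPM in ADF+ENZ, 41.8, 51.999, 62.99 and 51.2 in ADF, 75.2, 76.6, 74.6 and 63.2 in ENZ and 108, 96.2, 159 and 77.3 in Vehicle tumours. Its lowest mean was in the combined group, and no treated library reached the lowest Vehicle library. Pfkl fell in ADF+ENZ (log2 -1.23, SE 0.19, adjusted p = 0.000983) and in ADF (log2 -1.08, SE 0.19, adjusted p = 0.00332), and in ENZ it did not pass (log2 -0.61, SE 0.18, adjusted p = 0.0699). The platelet-type Pfkp fell in all 3 treated groups, to 20.3 ± 4.79 CPM in ADF+ENZ, 22.4 ± 4.93 in ADF and 24.8 ± 6.62 in ENZ, against 46.6 ± 14.03 in Vehicle. The muscle-type Pfkm passed in none, with 61.1 ± 14.4 CPM in ADF+ENZ, 44.2 ± 9.45 in ADF, 47.4 ± 9.46 in ENZ and 57.8 ± 9.57 in Vehicle. Per kilobase, Pfkm was 67.6% ± 7.20 of the 3 genes in ADF+ENZ, 58.2% ± 4.12 in ADF, 52.5% ± 7.45 in ENZ and 47.1% ± 10.9 in Vehicle (SD, n = 4 each), so the mixture leaned toward the muscle-type gene where the other 2 were low.

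The next steps are aldolase, which splits the sugar, and triosephosphate isomerase, which interconverts the 2 products. Aldoa, the main aldolase, was at 457, 439, 555 and 379 CPM in ADF+ENZ, 356, 427, 383 and 315 in ADF, 563, 600.2, 538 and 436 in ENZ and 738, 748, 1027 and 593 in Vehicle tumours. Tpi1 was at 337, 302, 381 and 264 CPM in ADF+ENZ, 247, 247, 261 and 217 in ADF, 309, 346, 339.6 and 321 in ENZ and 459, 538, 671 and 395 in Vehicle tumours. All ADF libraries of both genes lay below every library of Vehicle, and for Tpi1 every treated library did. Tpi1 fell in ADF (log2 -1.08, SE 0.13, adjusted p = 0.000207), ADF+ENZ (log2 -0.68, SE 0.13, adjusted p = 0.00337) and ENZ (log2 -0.65, SE 0.13, adjusted p = 0.00765). Aldoa fell by log2 -1.07 in ADF (adjusted p = 0.00069), -0.76 in ADF+ENZ (0.00398) and -0.54 in ENZ (0.0453). Aldoc, the brain-type aldolase, had the largest log2 change of the 37 in all 3 comparisons with Vehicle other than Pdk4 in ENZ, yet it is a trace member here: it was at 0.817, 0.929, 0.767 and 0.768 CPM in ADF+ENZ, 0.400, 0.474, 0.945 and 1.22 in ADF, 1.16, 1.64, 1.68 and 0.914 in ENZ and 2.73, 5.26, 4.71 and 3.70 in Vehicle tumours, from 50 counts in ADF+ENZ, 42 in ADF, 87 in ENZ and 277 in Vehicle summed over 4 libraries. It made up 0.163% of the aldolase level per kilobase in ADF+ENZ, 0.191% in ADF, 0.223% in ENZ and 0.479% in Vehicle.

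**Figure D2:**
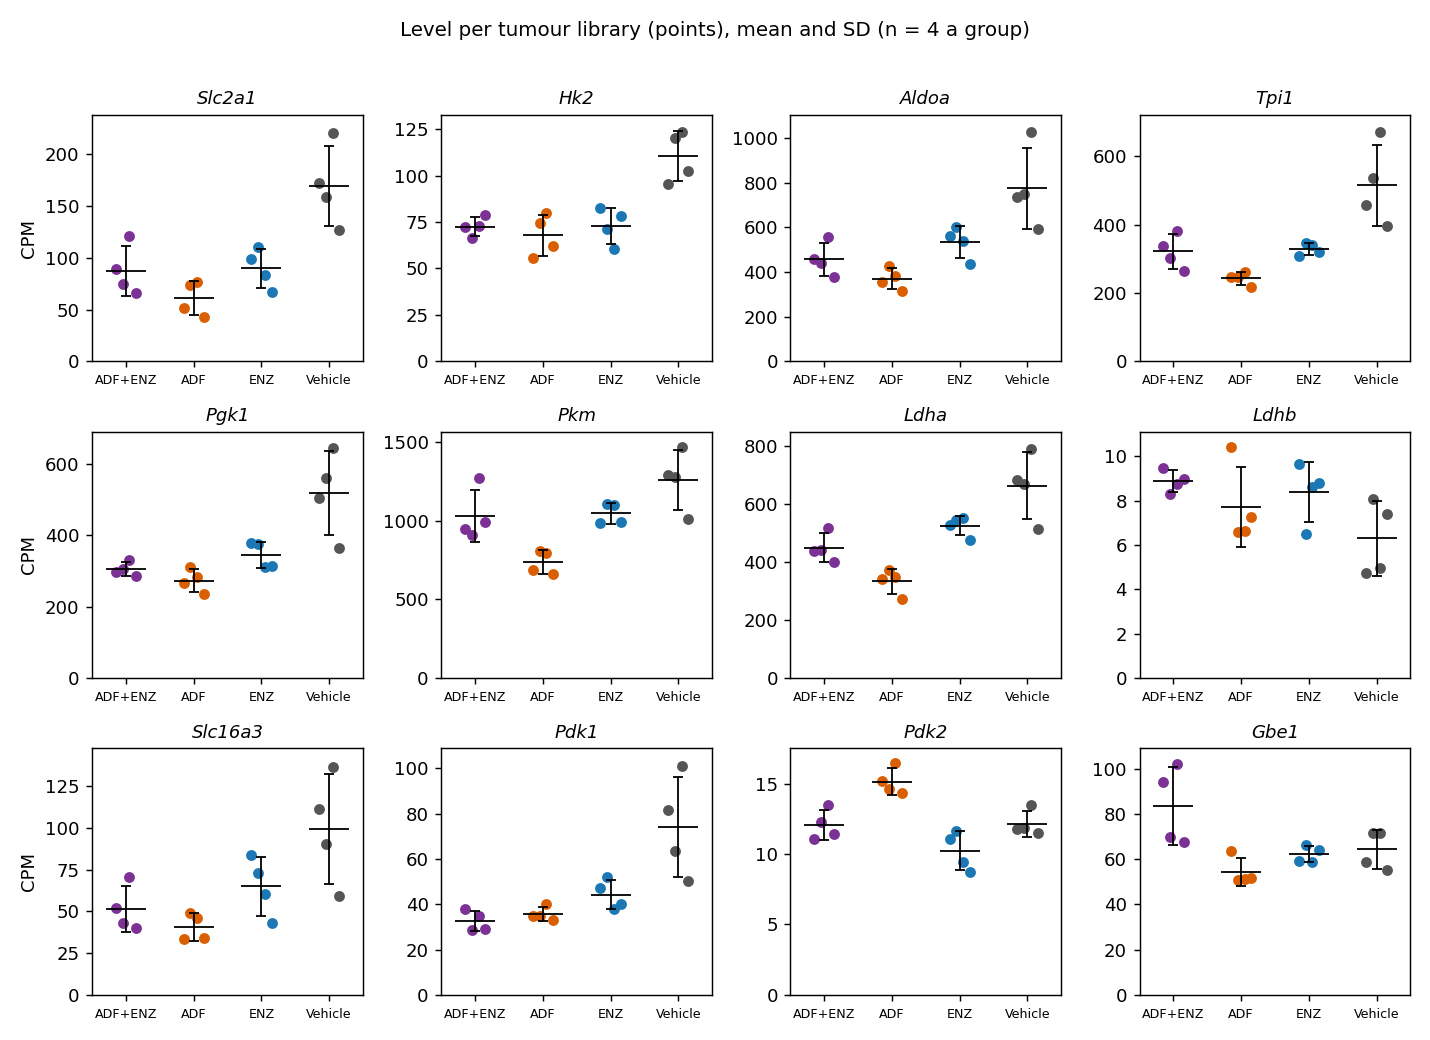
CPM of 12 members in each of the 16 tumour libraries (points; groups along the x axis), with the mean and SD of 4. Slc2a1, Hk2 and Tpi1 lie below every Vehicle library in all treated groups, while Ldhb and Pdk2 do not, and Gbe1 reaches its highest level, 102 CPM, in an ADF+ENZ library.

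From glyceraldehyde 3-phosphate to pyruvate, each step had a gene that fell in ADF. Gapdh, Pgk1, Pgam1, Eno1, Eno3 and Pkm all fell in ADF, with log2 changes of -0.80, -0.92, -0.94, -0.62, -0.64 and -0.77. Pgk1, which makes the first ATP of the pathway, was at 298, 306, 332 and 285 CPM in ADF+ENZ, 266, 310.4, 283 and 234 in ADF, 378, 377, 313 and 315 in ENZ and 505, 561, 644 and 364 in Vehicle tumours. Pkm, pyruvate kinase, which makes the last, was at 946, 912, 1269 and 992 CPM in ADF+ENZ, 685, 809, 793 and 664 in ADF, 984, 1106, 1102 and 993 in ENZ and 1288, 1275, 1466 and 1009 in Vehicle tumours. The 4 ADF libraries held the lowest Pkm values of all 16 libraries. Gapdh and Pgk1 also fell in ADF+ENZ (log2 -0.46 and -0.76) and in ENZ (-0.54 and -0.58). Pgam1, Eno1, Eno3 and Pkm did not pass in either drug-treated group: for Pkm the log2 change was -0.29 in ADF+ENZ (SE 0.12, adjusted p = 0.121) and -0.27 in ENZ (SE 0.12, 0.221). Eno2, the neuronal enolase, passed in no comparison, with 27.2 ± 3.13 CPM in ADF+ENZ, 29.02 ± 2.18 in ADF, 26.5 ± 6.28 in ENZ and 27.5 ± 3.65 in Vehicle.

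The 4 Pfkfb genes encode enzymes that make and remove fructose 2,6-bisphosphate, the activator of phosphofructokinase. None passed in ADF. Pfkfb2 fell in ADF+ENZ (log2 -0.73, SE 0.18, adjusted p = 0.0138) and in ENZ (log2 -0.65, SE 0.18, adjusted p = 0.0409), with 7.88 ± 1.21 CPM in ADF+ENZ, 11.01 ± 1.80 in ADF, 8.43 ± 0.832 in ENZ and 13.2 ± 3.62 in Vehicle. Pfkfb3, the form most tied to tumour glycolysis, had 29.2 ± 3.63, 31.1 ± 6.72, 28.5 ± 4.33 and 40.8 ± 7.88 CPM in ADF+ENZ, ADF, ENZ and Vehicle, with adjusted p = 0.0553, 0.128 and 0.0685 for the 3 comparisons with Vehicle in that order. Pfkfb1 stayed at 2.94 to 4.11 CPM in ADF+ENZ, 3.70 to 4.87 in ADF, 3.82 to 5.05 in ENZ and 2.62 to 5.11 in Vehicle, and Pfkfb4 averaged 16.9 ± 2.24, 18.99 ± 2.04, 17.8 ± 0.758 and 19.1 ± 2.14 CPM in the same order.

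On the lactate side, 3 of 4 genes fell in ADF and in ADF+ENZ, and none passed in ENZ. There all 4 had an unadjusted p under 0.05 in edgeR, 3 of them lower than Vehicle and Ldhb higher. The share of all genes at that unadjusted level was not counted, so nothing is read from this count. Between ADF+ENZ and ENZ none of the 4 passed. Ldha, whose subunit favours making lactate from pyruvate, was at 439.7, 440.3, 518 and 401 CPM in ADF+ENZ, 341, 373, 349.7 and 272 in ADF, 528, 546, 552 and 478 in ENZ and 682, 668, 791 and 513 in Vehicle tumours. The ADF libraries were the lowest of all 16. Ldha fell in ADF by log2 -0.99 (adjusted p = 0.000207) and in ADF+ENZ by -0.56 (0.00612), and in ENZ it did not pass (log2 -0.34, SE 0.12, adjusted p = 0.115). Slc16a3, the lactate exporter MCT4, was at 51.95, 43.2, 70.8 and 40.01 CPM in ADF+ENZ, 33.3, 49.2, 45.8 and 33.9 in ADF, 83.7, 73.2, 60.2 and 42.98 in ENZ and 111, 90.03, 137 and 58.9 in Vehicle tumours. Vehicle library 4, at the low end of its group, was within the range of ENZ and of ADF+ENZ but above all of ADF. Slc16a3 fell in ADF (log2 -1.29, SE 0.27, adjusted p = 0.0137) and in ADF+ENZ (log2 -0.96, SE 0.27, adjusted p = 0.0346), and in ENZ it did not pass (log2 -0.61, SE 0.27, adjusted p = 0.216). Slc16a1, the two-way carrier MCT1, had its lowest mean in the combined group. It fell to 33.4 ± 3.57 CPM in ADF+ENZ and 42.1 ± 0.661 CPM in ADF, against 56.5 ± 8.48 CPM in Vehicle (adjusted p = 0.00166 and 0.0498). ENZ tumours had 45.5 ± 10.4 CPM (adjusted p = 0.193).

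Ldhb, whose subunit favours the return from lactate to pyruvate, passed in no comparison and lay on the other side of 0: it was at 9.48, 8.30, 8.76 and 8.97 CPM in ADF+ENZ, 10.4, 6.57, 6.61 and 7.24 in ADF, 9.66, 6.48, 8.59 and 8.80 in ENZ and 4.76, 8.06, 4.97 and 7.40 in Vehicle tumours. Its log2 change was 0.49 in ADF+ENZ (adjusted p = 0.0925), 0.28 in ADF (0.357) and 0.41 in ENZ (0.23). As a description within each library, the ratio of Ldha to Ldhb counts was 44.7 to 59.2 in ADF+ENZ, 32.8 to 56.7 in ADF, 54.2 to 84.2 in ENZ and 69.3 to 159 in Vehicle. The ADF+ENZ and ADF ranges lay wholly below Vehicle. Ldha still made up 96.0% of the pair per kilobase in ADF+ENZ, 95.3% in ADF, 96.7% in ENZ and 98.0% in Vehicle.

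**Figure D3:**
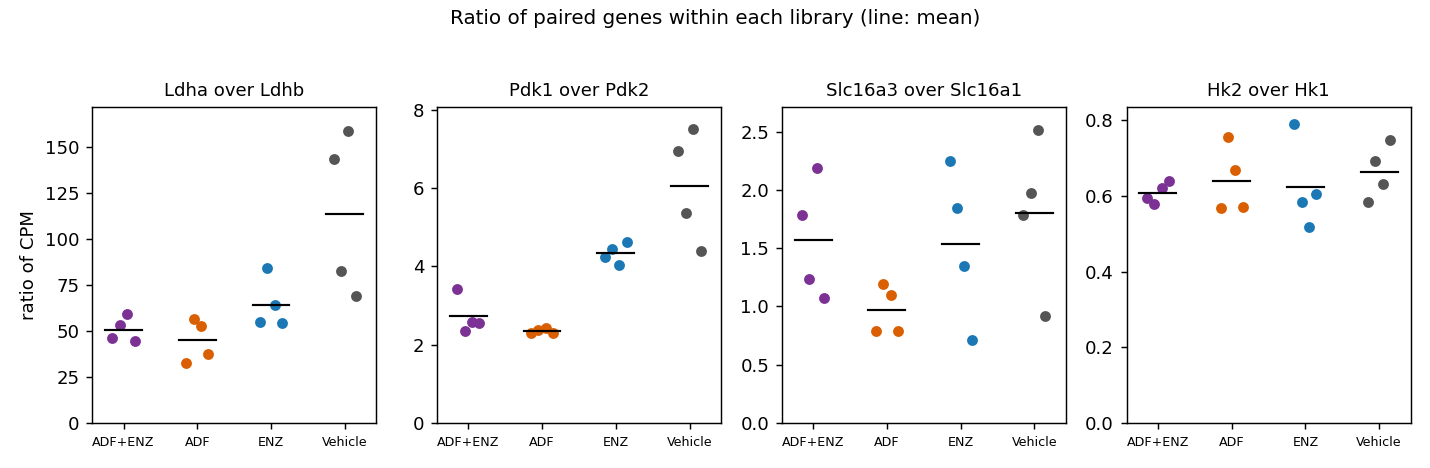
Ratio of CPM between paired genes in each library (points; groups along the x axis; lines are means of 4). The ratio of Pdk1 to Pdk2 lies at 2.31 to 2.43 in ADF, below every ENZ and Vehicle library, while the ratio of Hk2 to Hk1 overlaps in all 4 groups.

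Entry of pyruvate into the mitochondrial pathway is gated by 4 kinases that inactivate pyruvate dehydrogenase. Pdk1, the hypoxia-induced kinase, was at 38.1, 28.8, 34.7 and 29.1 CPM in ADF+ENZ, 35.02, 34.8, 39.9 and 33.05 in ADF, 47.1, 51.9, 37.9 and 40.3 in ENZ and 81.8, 63.3, 101 and 50.4 in Vehicle tumours. All ADF+ENZ and ADF libraries lay below every Vehicle library, and ENZ overlapped Vehicle by library 2 of ENZ and library 4 of Vehicle. It fell in ADF+ENZ (log2 -1.19, SE 0.17, adjusted p = 0.000528), in ADF (log2 -1.05, SE 0.17, adjusted p = 0.00194) and in ENZ (log2 -0.74, SE 0.17, adjusted p = 0.0165). Pdk2, a widely expressed kinase, was at 11.1, 12.3, 13.5 and 11.4 CPM in ADF+ENZ, 15.2, 14.6, 16.5 and 14.3 in ADF, 11.1, 11.7, 9.43 and 8.72 in ENZ and 11.8, 11.8, 13.5 and 11.5 in Vehicle tumours. The ADF libraries were the 4 highest of the 16, yet the change against Vehicle did not pass (log2 0.32, SE 0.11, adjusted p = 0.0834). Pdk3 averaged 35.8 ± 3.56 CPM in ADF+ENZ, 32.8 ± 3.12 in ADF, 36.5 ± 3.998 in ENZ and 38.4 ± 8.21 in Vehicle and passed nowhere. The ratio of Pdk1 to Pdk2 was 2.35 to 3.43 in ADF+ENZ, 2.31 to 2.43 in ADF, 4.02 to 4.62 in ENZ and 4.39 to 7.50 in Vehicle. Both fasted groups lay below both freely fed groups in this ratio.

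Pdk4 is the kinase that fasting induces in muscle and liver. It was barely detected in these tumours, at 1.39, 1.53, 0.657 and 0.283 CPM in ADF+ENZ, 0.240, 1.24, 0.866 and 0.358 in ADF, 0.0895, 0.205, 0.120 and 0 in ENZ and 0.476, 0, 0.327 and 0.608 in Vehicle tumours, from 53 counts in ADF+ENZ, 40 in ADF, 6 in ENZ and 24 in Vehicle. Every ADF+ENZ and every ADF library was above every ENZ library, but no comparison passed: the log2 change was 0.96 in ADF against Vehicle (SE 0.71, adjusted p = 0.41) and 3.23 in ADF+ENZ against ENZ (SE 0.87, 0.0765). Of the pyruvate dehydrogenase subunits, Pdha1, the E1 alpha subunit that the kinases phosphorylate, fell to 109 ± 6.19 CPM in ADF+ENZ, 102 ± 6.02 in ADF and 109 ± 5.97 in ENZ, against 135 ± 17.1 in Vehicle (adjusted p = 0.0246, 0.00849 and 0.0409). Pdhb, the E1 beta subunit, and Dlat, the E2 core, passed in none of the 3 comparisons, and their log2 changes in ADF were -0.16 and -0.16.

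Of the 4 side-branch genes, Gys1, the muscle-type glycogen synthase, fell to 30.8 ± 4.10 CPM in ADF+ENZ (adjusted p = 0.0155) and 31.3 ± 5.19 CPM in ADF (0.0276), against 43.8 ± 7.29 CPM in Vehicle. In ENZ it averaged 33.2 ± 2.14 CPM and did not pass (0.0781). Pygl, liver glycogen phosphorylase, stood at 5.50 to 9.64 CPM in ADF+ENZ, 6.77 to 12.6 in ADF, 4.92 to 9.34 in ENZ and 7.79 to 12.4 in Vehicle. G6pdx, the first enzyme of the pentose phosphate pathway, stood at 89.4 to 100.4, 71.6 to 94.98, 69.2 to 90.3 and 75.1 to 105 CPM in the same groups. Neither passed, nor did Gbe1, the glycogen branching enzyme, in any comparison with Vehicle.

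Single libraries and the make-up of the ADF libraries bear on these counts. Leaving out each library in turn left 16 to 20 members lower in ADF, and 16 of the 21 passed in all 8 such fits. The exceptions were Pfkp, Eno3, Slc16a1, Slc16a3 and Gys1. Slc16a1 passed in only 1 of the 8. With a covariate for the percent of no-feature reads, 0 members passed in ADF against Vehicle, and 6 of 18946 genes did. This percent separates ADF from Vehicle without overlap, so the fasting schedule and this make-up cannot be told apart in that comparison. Log2 changes in that fit were -0.97 for Slc2a1, -0.63 for Tpi1, -0.61 for Ldha and -2.47 for Aldoc. In ADF+ENZ, whose percent overlaps Vehicle, 22 members fell with the same covariate, and 1579 of 18946 genes passed in either direction. Leaving out a library left 13 to 19 members past the threshold in ADF+ENZ, and 12 of the 18 passed in all 8 fits. Not all of these were lower: 2 rose without Vehicle library 2, and 1 rose without ADF+ENZ library 2 and without library 4. Over all genes, calls in either direction in these fits were 2252, 2093 and 2286. In ENZ the count was less steady: it was 8 without ENZ library 1, 4 without ENZ library 3, 5 without ENZ library 4, 8 without Vehicle library 2 and 4 without Vehicle library 3, and Hk1, Hk2, Aldoc and Tpi1 passed in all 8 fits. Over all genes, the calls in these left-out fits were 1194, 403, 613, 881 and 461 in the same order, against 1028 in the main fit. With only the ENZ and Vehicle libraries fitted, 5 members passed, and 755 of 17897 genes did.

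Fasting on top of the drug, ADF+ENZ against ENZ, gave no member past the threshold: 0 members rose and 0 fell, where 0.813% of genes tested rose and 0.274% fell. At an unadjusted p under 0.05 there were 8 members. The share of all genes at that level was not counted, so nothing is read from this count. Of 18946 genes limma-voom called 302, with 0 members among them. DESeq2 called 693, with 2 members among them, Pfkl (log2 -0.62, adjusted p = 0.0256) and Gbe1 (0.43, 0.0458). The median change of the members was -0.03. Slc2a1 changed by log2 -0.044 (SE 0.24), Hk1 by 0.011 (SE 0.098), Tpi1 by -0.034 (SE 0.13), Pkm by -0.023 (SE 0.12) and Ldha by -0.23 (SE 0.12). Pfkl was the member whose ADF+ENZ libraries all lay below the lowest ENZ library, with adjusted p = 0.122 in edgeR. For 3 members, Pdhb, Gbe1 and Pdk4, all ADF+ENZ libraries lay above the highest ENZ library, and none of them passed in edgeR. The share of all genes without overlap was not counted here, so nothing is read from these numbers. Without ADF+ENZ library 4, 2 members passed, and 277 of 19319 genes did.

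The drug on top of fasting was compared in ADF+ENZ against ADF, where 7 members rose and 0 fell, while 8.72% of genes tested rose and 7.54% fell, and the median of the members was 0.16. The 7 were Tpi1, Pgam1, Pkm, Ldha, Pdhb, Dlat and Gbe1. Pdhb was at 77.3, 77.3, 87.4 and 78.2 CPM in ADF+ENZ, 69.6, 53.4, 58.2 and 57.1 in ADF, 58.8, 66.7, 74.9 and 64.2 in ENZ and 60.7, 69.6, 62.9 and 72.1 in Vehicle tumours, and Gbe1 was at 94.2, 69.95, 102 and 67.9 CPM in ADF+ENZ, 63.6, 50.7, 51.5 and 51.9 in ADF, 59.3, 66.2, 59.01 and 64.1 in ENZ and 58.9, 71.9, 71.5 and 55.2 in Vehicle tumours. For both genes every ADF+ENZ library lay above every ADF library, with log2 changes of 0.43 for Pdhb (adjusted p = 0.00761) and 0.61 for Gbe1 (0.00553). Dlat rose to 59.4 ± 3.32 CPM in ADF+ENZ, against 50.2 ± 2.22 CPM in ADF. Ldha, Pkm, Pgam1 and Tpi1 rose by log2 0.43, 0.48, 0.61 and 0.40. The share of the 37 that rose, read against 8.72% of all genes, rests on few libraries: without ADF library 4 or without ADF+ENZ library 3 the count was 2, and Pdhb and Gbe1 passed in all 8 such fits. Over all genes, calls in either direction were 1197 without ADF library 4 and 1274 without ADF+ENZ library 3, against 3081 in the main fit. With the percent in no feature as a covariate 0 genes of 18946 passed in this comparison, so the drug and the make-up of the ADF libraries cannot be told apart here either.

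**Figure D4:**
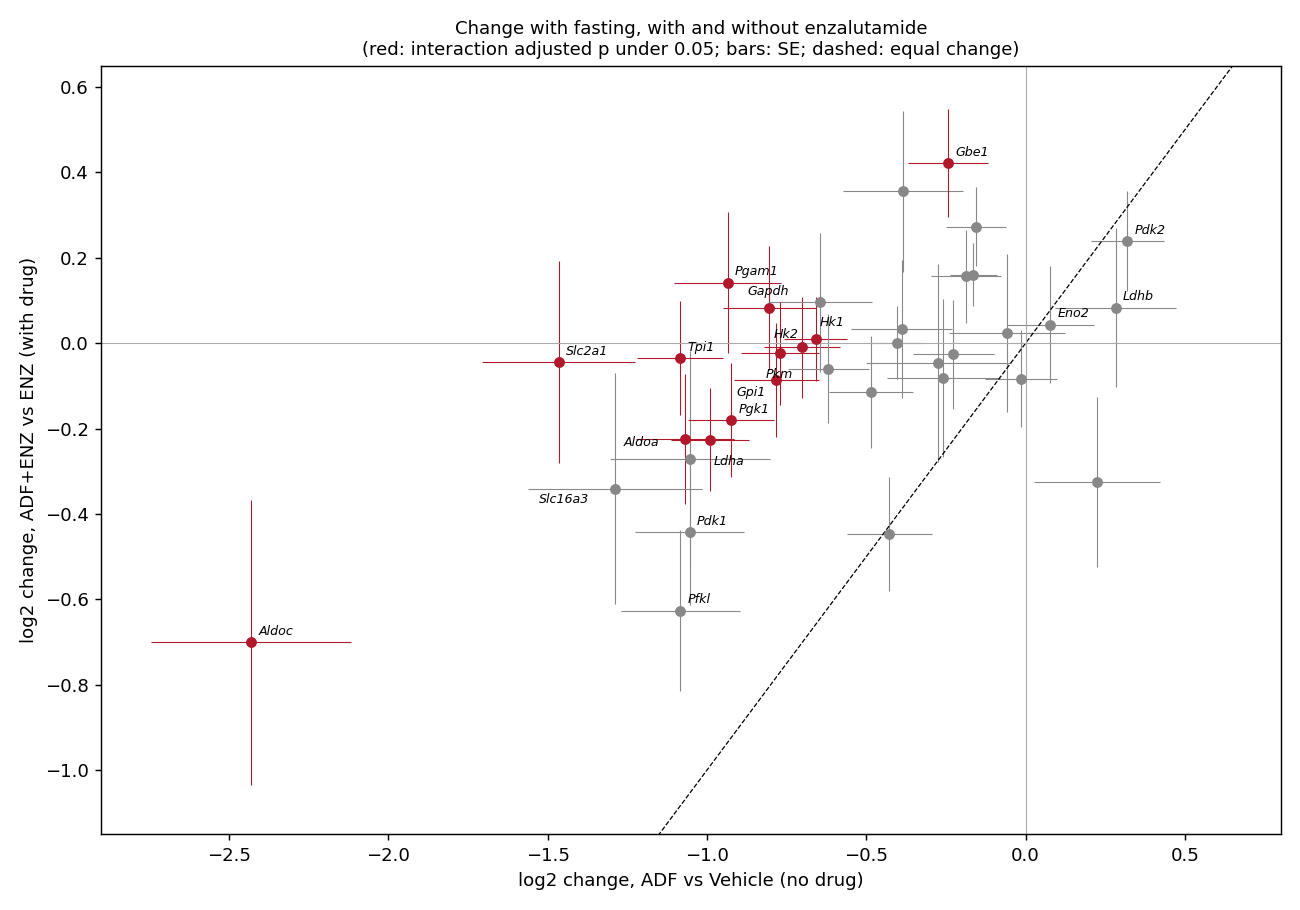
Log2 change with fasting for 36 members (Pdk4, with few counts, is left out), without the drug (x axis, ADF against Vehicle) and with it (y axis, ADF+ENZ against ENZ). Bars are SE, the dashed line marks equal change, and red points passed the test of the difference, as 13 members did, all above the line.

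The change with fasting was tested for a difference between drug-treated and untreated mice, as (ADF+ENZ minus ENZ) minus (ADF minus Vehicle). In this interaction 13 members were above 0 and 0 below, where 2.18% of genes tested were above and 0.918% below. A value above 0 here means that the log2 change with fasting was higher under enzalutamide than without it, whether or not it was a decrease there. The 13 were Slc2a1, 10 glycolytic enzymes (Hk1, Hk2, Gpi1, Aldoa, Aldoc, Tpi1, Gapdh, Pgk1, Pgam1 and Pkm), Ldha and Gbe1. For Tpi1 the change was -0.034 with the drug and -1.08 without it, a difference of 1.05 (SE 0.19, adjusted p = 0.00893). For Slc2a1 the values were -0.044 and -1.46, a difference of 1.42 (SE 0.34, adjusted p = 0.0389). For Ldha they were -0.23 and -0.99, a difference of 0.77 (SE 0.17, adjusted p = 0.0256). Gbe1 lay on both sides of 0, with 0.42 with the drug and -0.24 without it, and neither change passed. Pgam1, Gapdh and Hk1 fell without the drug (-0.94, -0.80 and -0.66). With it they changed by 0.14 (SE 0.17), 0.083 (SE 0.14) and 0.011 (SE 0.098), and none passed. Pfkl, Slc16a3, Slc16a1 and Pdk1 did not pass the interaction (adjusted p = 0.333, 0.176, 0.967 and 0.16); for Slc16a1 the changes were -0.45 with the drug and -0.43 without it.

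Hk1 and Tpi1 passed the interaction in all 16 fits that leave out a library. The count was 3 without Vehicle library 2, 3 without Vehicle library 3, 7, 7, 5 and 6 without ENZ libraries 1, 2, 3 and 4, 8, 7 and 3 without ADF libraries 2, 3 and 4, 4 without ADF+ENZ library 1 and 2 without ADF+ENZ library 3. Calls over all genes in these fits, in the same order, were 224, 190, 400, 325, 357, 391, 309, 294, 148, 209 and 175. The main fit called 587. Among protein-coding genes alone 7 members passed, and 352 of 13746 genes did. With the percent in no feature as a covariate 0 members passed, a fit in which 0 of 18946 genes passed. The ADF libraries, which alone had 30.3% or more of reads in no feature, enter this contrast and ADF against Vehicle alike.

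The rest of the pathway was read from a further list. Of 76 genes of sugar transport, glycolysis, glycogen, pyruvate and pentose metabolism, 57 were tested. In ADF 8 fell (4.96% of all genes tested fell) and 0 rose (4.05%), in ADF+ENZ 13 fell (6.53%) and 1 rose (5.97%), and in ENZ 4 fell (3.62%) and 1 rose (1.81%). In ADF+ENZ against ENZ 1 rose (0.813%) and 1 fell (0.274%), in ADF+ENZ against ADF 9 rose (8.72%) and 4 fell (7.54%), and in the interaction 4 were above 0 (2.18%) and 0 below (0.918%). The count of 1 that rose in ENZ and the count of 4 that fell in ADF+ENZ against ADF are near the shares over all genes. No test was made of any of these shares. Ppp1r3c, a scaffold that targets a phosphatase to glycogen and promotes its storage, was the lowest in each comparison with Vehicle: it averaged 2.78 ± 1.0004 CPM in ADF+ENZ, 5.82 ± 2.63 in ADF and 5.47 ± 3.98 in ENZ, against 20.7 ± 5.75 in Vehicle (SD, n = 4 each), with log2 changes of -2.83, -1.84 and -1.98. Pgm1, which joins glycogen to glycolysis, fell by log2 -0.86 in ADF (adjusted p = 0.00233) and by -0.59 in ENZ (0.0243).

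Partners of the lactate carriers fell in ADF as well. Bsg, basigin, the chaperone of MCT1 and MCT4, fell to 200.3 ± 15.7 CPM in ADF, against 331 ± 49.5 CPM in Vehicle (log2 -0.72, SE 0.11, adjusted p = 0.000929). Emb, embigin, a related chaperone, fell to 18.8 ± 6.57 CPM, against 37.1 ± 9.37 CPM (adjusted p = 0.0415). In the combined group against Vehicle, the genes with the largest changes after Ppp1r3c were Hk3, a hexokinase of myeloid cells (log2 -1.39), Pcx, pyruvate carboxylase (-1.29), and Ppp1r3b, another glycogen scaffold (-1.11), all at 5.24 CPM or less on average in ADF+ENZ. In ENZ, Bpgm, which makes 2,3-bisphosphoglycerate, rose (log2 0.56) and Pdp1, the phosphatase that reactivates pyruvate dehydrogenase, fell (-0.55). Against ENZ, Gpd2, the mitochondrial glycerol phosphate dehydrogenase, rose to 142 ± 23.995 CPM in ADF+ENZ, against 99.1 ± 12.9 CPM in ENZ, and Taldo1, transaldolase of the pentose pathway, fell to 62.99 ± 3.27 CPM, against 88.3 ± 4.27 CPM. Between ADF+ENZ and ADF, Hk3 (log2 -0.85), Pcx (-0.81) and Slc2a8, a glucose transporter of internal membranes (-0.60), fell and Slc2a9, a urate and hexose carrier (0.69), rose. Slc2a9, Pgm1 and the malate-aspartate shuttle genes Got1 and Mdh1 were above 0 in the interaction, by log2 1.07, 0.86, 0.85 and 0.52.

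Transcripts of the factors known to drive the pathway were read as well, and of 15 regulators 13 were tested. Hif1a averaged 196 ± 7.74 CPM in ADF+ENZ, 179.8 ± 22.01 in ADF, 190.2 ± 11.2 in ENZ and 202 ± 8.08 in Vehicle, and passed in no comparison. Epas1, which encodes HIF-2 alpha, averaged 67.5 ± 18.1, 83.9 ± 12.2, 67.4 ± 14.7 and 59.2 ± 8.91 CPM in the same groups, Arnt, the HIF partner, 135 ± 5.43, 129 ± 6.88, 120.3 ± 4.84 and 127 ± 9.11 CPM, and mouse Myc 124 ± 18.6, 117 ± 25.6, 104 ± 18.04 and 96.1 ± 7.04 CPM. None of them passed. Txnip, a glucose-induced brake on glucose uptake, averaged 98.1 ± 18.3, 167 ± 46.7, 89.5 ± 35.3 and 109 ± 22.6 CPM and did not pass. In ADF against Vehicle, the glucose-sensing partner genes Mlx and Mlxip passed in opposite directions, Mlx lower (log2 -0.41, adjusted p = 0.0292) and Mlxip higher (0.36, 0.0155). Mlx was higher in ADF+ENZ against ADF (0.42, 0.0185). Mlxipl, Arrdc4, Ppard, Pparg, Foxo1 and Foxo3 passed nowhere, and Ppara and Ppargc1a were too low to be tested. Transcript counts do not measure the stability of HIF proteins.

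**Figure D5:**
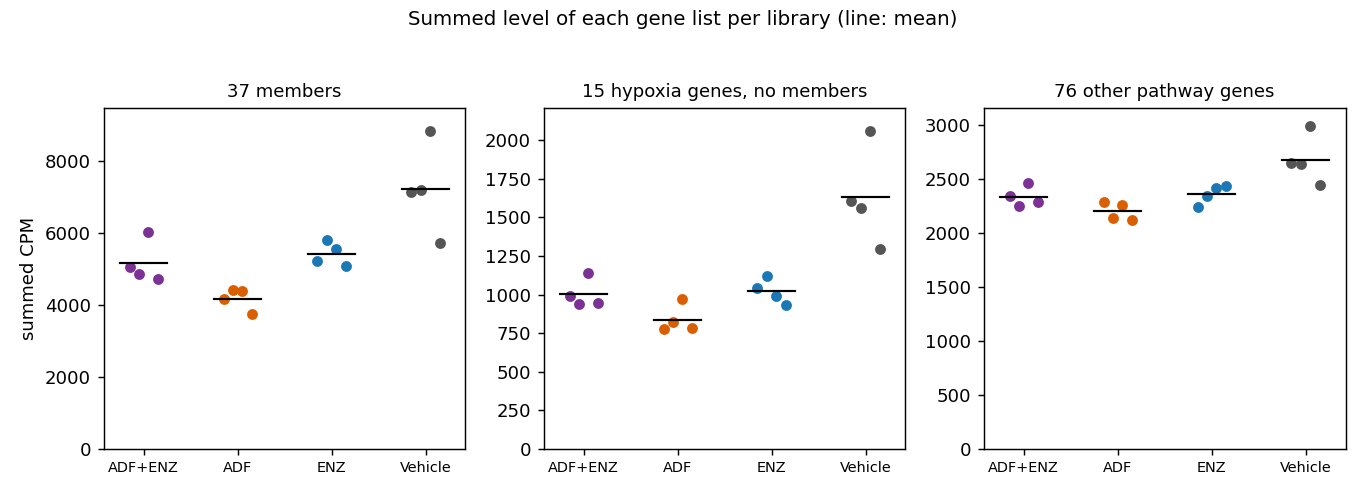
Summed CPM of the 37 members, of 15 hypoxia-response genes that are no members and of the 76 further pathway genes in each library (points; groups along the x axis; lines are means of 4). Each list is highest in Vehicle library 3 and is lower in all 4 ADF libraries than in any Vehicle library.

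Hypoxia-response genes outside the 37 were lower in the treated groups as well. The 15 listed genes, among them Vegfa, Car9 and Bnip3, summed to 939 to 1142 CPM in ADF+ENZ, 775 to 972 CPM in ADF, 930 to 1119 CPM in ENZ and 1293 to 2059 CPM in Vehicle. No treated library reached a Vehicle library. In ADF 11 of the 15 fell (median log2 -1.01; 4.96% of all genes tested fell), in ADF+ENZ 11 (-0.87; 6.53%) and in ENZ 8 (-0.75; 3.62%), and none rose. Against ENZ alone, 0 of the 15 passed in ADF+ENZ (median -0.10), 2 rose against ADF (0.19; 8.72% of all genes rose), and 7 were above 0 in the interaction (0.83; 2.18%). The part of oxygen supply in the change of the 37 members was not tested.

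Markers of other cells were set beside the members. Summed macrophage markers (10 genes) lay at 1982 to 2802 CPM in ADF+ENZ, 2149 to 2526 CPM in ADF, 1955 to 2761 CPM in ENZ and 2104 to 3034 CPM in Vehicle. Endothelial markers (10 genes) lay at 254 to 514, 363 to 444, 347 to 634 and 321 to 557 CPM in the same groups, and skeletal muscle markers (20 genes), tissue that is rich in Eno3 and Pfkm, at 31.9 to 63.3, 51.5 to 82.4, 26.9 to 51.2 and 22.1 to 118 CPM. These ranges overlap between each treated group and Vehicle. For skeletal muscle in ADF the overlap rests on Vehicle library 4, at 118 CPM, while the other Vehicle libraries lay at 22.1 to 43.7 CPM. The largest part of this sum is Ttn, at 25.9 CPM on average. Of 15 muscle genes tested 0 passed in ADF against Vehicle, and their median log2 change was -0.35. Fibroblast markers (10 genes) lay at 11933 to 13750 CPM in ADF+ENZ, 9195 to 12942 CPM in ADF, 9732 to 10825 CPM in ENZ and 11299 to 13104 CPM in Vehicle, so ENZ lay wholly below Vehicle, and their part in the ENZ result was not tested. The basal epithelial list (6 genes) lay at 885 to 1127 CPM in ADF, against 618 to 875 CPM in Vehicle, but this sum is nearly all Dst, and Krt5, Krt14, Krt15 and Krt17 had 2, 5, 8 and 4 counts in all 16 libraries. Proliferation genes (8) summed to 2613 to 3257 CPM in ADF+ENZ, 905 to 2403 CPM in ADF, 1553 to 3146 CPM in ENZ and 1056 to 4965 CPM in Vehicle. ADF+ENZ lay wholly above ADF on this sum, yet 0 of the 8 genes passed between those groups, where 8.72% of all genes rose. Their median log2 change was 0.24. The part of proliferation in the difference between ADF+ENZ and ADF was not tested. Vehicle was the widest of the 4 groups here, and the order of its libraries differed from that of the 37 members: library 2 was the highest for proliferation and library 3 for the members.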

How the data were processed

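RNA was sequenced by the submitters from 16 tumours, 4 a group. Whole-number counts of reads per gene were deposited for every library. Per the submitters' processing notes, the tools were featureCounts, HISAT2, Trim Galore and DESeq2 (no versions) and the builds mm39 and GRCh38 (no role). Whether counting used strand is not stated there. The 5 entries that name no gene (reads in no feature and the like) were kept out of library sizes and tests. Reads in no feature took 21.2% to 36.7% of each library. Symbols, gene class and exon length came from a mouse annotation of build GRCm38, promoters from RefSeq GRCm38.p6. Of 2 IDs annotated as Aldoa, the one with more counts was used. Where several starts were listed, the promoter used was that with most annotated transcript starts within 100 bases.

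The main test was robust quasi-likelihood in edgeR 4.0.16 (R 4.3.3), fitted to the 4 groups at once after filterByExpr (minimum count 10, total 15) left 18946 genes, on TMM-scaled library sizes. Each contrast was adjusted by Benjamini-Hochberg over all of them, with a threshold of 0.05, and members were then read off. CPM are TMM-scaled, ± is the SD of 4, and the SE is the log2 change over the root of F. The sharing of 75-base stretches was counted over annotated transcripts.

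The 37 members and all lists were chosen with earlier results of these data known. All members are named, further pathway genes by the largest change past the threshold (at most 4 a contrast), and regulators whatever they did. Alternatives were DESeq2 1.42.0, DESeq2 size factors within edgeR, limma-voom (limma 3.58.1), no filter, a stricter filter (1 CPM in 4 libraries), protein-coding genes alone, covariates for skeletal muscle markers and for reads in no feature, only the groups compared, and each library left out. The fit was tested on simulated data. Some prostate marker genes are not reported here. Figures used matplotlib 3.10.9.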

Additional observations from a re-analysis of the deposited data

Results flagged for a closer look

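In 148 groups of 4 values (37 members in 4 groups), 6 had one library far from the other 3, where chance flags about 1 in 20 groups. In ENZ, library 4 held 63.2 CPM of Pfkl, below the other 3 at 74.6 to 76.6 CPM, and library 1 held 9.66 CPM of Pfkfb2, above the others at 7.89 to 8.17 CPM. The same ENZ library 1 held 35.9 CPM of Eno2, above 22.4 to 24.1 CPM in the other 3. In ADF+ENZ, library 2 held 23.8 CPM of Pfkfb3, below 30.6 to 31.7 CPM, and library 3 held 87.4 CPM of Pdhb, above 77.3 to 78.2 CPM. In ADF, library 1 held 63.6 CPM of Gbe1, above 50.7 to 51.9 CPM.

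The change with fasting differed between mice with and without enzalutamide in 13 members, by the interaction test in edgeR. The differences on the log2 scale were 1.42 for Slc2a1, 0.67 for Hk1, 0.69 for Hk2, 0.70 for Gpi1, 0.84 for Aldoa, 1.73 for Aldoc, 1.05 for Tpi1, 0.89 for Gapdh, 0.74 for Pgk1, 1.08 for Pgam1, 0.75 for Pkm, 0.77 for Ldha and 0.66 for Gbe1. Of these, 2 passed in every fit that left out a library.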

How the results depend on the processing

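The count of members past the threshold in ADF+ENZ against Vehicle (18) stayed within 1.5 times of itself in all alternatives, and over left-out libraries it was 13 to 19. In ADF against Vehicle (21) it was 16 to 20 over left-out libraries and 0 with the no-feature covariate. In limma-voom 1 member rose in each of these 2 comparisons, where 2400 genes passed in ADF+ENZ and 2344 in ADF in either direction. In ENZ against Vehicle (13) it was 4 to 17 over left-out libraries and 5 when only the groups compared were fitted. In ADF+ENZ against ENZ (0) it was 2 in DESeq2, 1 with the skeletal muscle covariate (Gbe1) and 0 to 2 over left-out libraries. In ADF+ENZ against ADF (7) it was 0 with the no-feature covariate, 4 with the muscle covariate and 2 to 7 over left-out libraries. There 1 member fell in DESeq2, limma-voom, the stricter filter, the protein-coding fit and the fit of only the groups compared. Those fits called 3680, 4444, 3096, 1923 and 2648 genes in either direction. For the interaction (13) it was 0 with the no-feature covariate, 7 among protein-coding genes and 2 to 14 over left-out libraries. Calls over all genes changed between fits as well: in the interaction, from 587 to 175 without ADF+ENZ library 3 and to 908 without ADF+ENZ library 2. With the no-feature covariate, 3 values in ADF+ENZ against ADF turned below 0: Tpi1 at -0.16, Pgam1 at -0.097 and Ldha at -0.047. This percent separates ADF from the other groups without overlap, and it and the group cannot be told apart. Over single genes and alternatives, 5150 values kept direction and call, 405 lost the call, 61 gained it and 218 changed sign with no call either way. The count with only the groups compared was not run for the interaction, which needs all 4. No paired analysis was possible because the labels number tumours without shared numbers between groups. Depth bears most on Pdk4 and Aldoc, the members with the fewest counts.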

Other observations

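Libraries that were high or low for one member tended to be so for others. In ADF+ENZ, library 3 was the highest of the 4 for 20 of the 37 members, and in ENZ library 2 was the highest for 17 and library 4 the lowest for 16. In ADF, library 4 was the lowest for 16 members and for 13 of the 21 that fell. These counts describe the libraries, and members are not independent of each other. In mean level, ADF was the lowest of the 4 groups for 22 members, ADF+ENZ for 9 and ENZ for 5, and Vehicle was the highest for 27. Of the 21 members that fell in ADF, 16 had a higher mean in ADF+ENZ than in ADF and 5 a lower one.

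The 76 further pathway genes summed to 2248 to 2463 CPM in ADF+ENZ, 2114 to 2281 CPM in ADF, 2235 to 2436 CPM in ENZ and 2438 to 2987 CPM in Vehicle. Summed regulators lay at 956 to 1028 CPM in ADF+ENZ, 989 to 1109 CPM in ADF, 837 to 979 CPM in ENZ and 907 to 1038 CPM in Vehicle. Adipocyte markers (8 genes) lay at 104 to 177, 101 to 262, 107 to 151 and 148 to 306 CPM in the same groups, and epithelial markers (10) at 303 to 893, 523 to 674, 431 to 776 and 626 to 839 CPM. The epithelial sum is nearly all Krt8 and Krt18, at 501 and 121 CPM on average over the 16 libraries. Lymphocyte (11), neutrophil (10) and erythroid (7) markers each summed to at most 52.3 CPM in any library.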
